A study of Mus musculus with 30 samples.

Results

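The genes described here are the sensors of double-stranded RNA and their adaptor, 6 genes taken by symbol from the 31427 gene symbols of the deposited table: Ddx58 (RIG-I), Ifih1 (MDA5), Dhx58 (LGP2), Tlr3, Eif2ak2 (PKR) and Mavs. All 6 were measured in each of 30 RNA-seq libraries of a mouse dendritic cell line that the labels give as DC3.2 for every library, and all 6 were among the 11842 genes tested. The libraries fall into 24 replicated ones, in 12 groups of 2, and 6 without a replicate; the titles of the replicated ones begin with DC32R and those of the single ones with Dc3.2. The replicated groups combine 4 genotypes with 3 treatments. IRF1 and IRF2 are transcription factors of the interferon regulatory family. Both were targeted in DKO cells, IRF2 alone in IRF2KO cells, IRF1 alone in IRF1KO cells and neither in WT cells, whose columns are headed as carrying no guide. Each genotype was kept for 2 h with IFNγ at 2 ng/mL, with IFNα at 5000 U/mL or in media alone. The single libraries are IRF2KO and WT cells after 2 h with IFNα at 5000 U/mL, after 2 h with LPS (dose not given) and at 0 h. The labels do not say whether a mutant line is 1 clone or a pool. They also leave unsaid whether replicates came from separate cultures, and p-values here cover only the spread between the libraries, which may be technical.

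Double-stranded RNA longer than a cell normally makes is a mark of viral infection. In the cytosol it is bound by the helicases RIG-I, which favours short or end-phosphorylated RNA, and MDA5, which forms filaments on long RNA. Both signal through MAVS, an adaptor on the outer mitochondrial membrane, to switch on type I interferon. LGP2 is the third helicase of that family but has no signalling domain and modulates the other two. TLR3 binds double-stranded RNA inside endosomes and signals through another adaptor, TRIF, and PKR is a kinase that halts translation by phosphorylating eIF2α once RNA has bound it. Several of these genes are themselves interferon-stimulated. Type I interferon acts on promoter elements called ISREs, whose GAAA repeats are also the DNA recognised by IRF1 and IRF2. IFNγ acts mainly on other elements, called GAS.

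The windows around the annotated starts allow genes lower in IRF2-targeted cells and the 2 others to be read against the same short motifs. Of the 4 lower genes, Dhx58 has no window here. RefSeq windows on GRCm38.p6, from 250 bases before to 50 bases after the start, were matched for 5 of the 6 genes, all but Dhx58. Capitals mark matches on either strand to AANNGAAA, the core bound by IRF proteins, and each sequence is written in the direction of transcription.
Ddx58 (chr4:40239776-40240075, minus strand): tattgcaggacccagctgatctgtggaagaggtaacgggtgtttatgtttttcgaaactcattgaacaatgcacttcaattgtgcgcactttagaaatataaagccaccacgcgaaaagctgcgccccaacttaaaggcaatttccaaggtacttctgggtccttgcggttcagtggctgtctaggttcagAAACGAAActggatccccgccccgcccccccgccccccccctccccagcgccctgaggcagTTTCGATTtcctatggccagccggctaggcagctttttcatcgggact
Ifih1 (chr2:62646206-62646505, minus strand): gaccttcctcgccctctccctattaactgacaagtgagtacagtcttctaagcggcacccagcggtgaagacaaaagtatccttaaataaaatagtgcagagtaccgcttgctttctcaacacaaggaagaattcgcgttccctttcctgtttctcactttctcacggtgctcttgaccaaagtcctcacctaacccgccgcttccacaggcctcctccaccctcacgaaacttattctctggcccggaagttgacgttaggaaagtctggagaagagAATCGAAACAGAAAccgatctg
Tlr3 (chr8:45410331-45410630, minus strand): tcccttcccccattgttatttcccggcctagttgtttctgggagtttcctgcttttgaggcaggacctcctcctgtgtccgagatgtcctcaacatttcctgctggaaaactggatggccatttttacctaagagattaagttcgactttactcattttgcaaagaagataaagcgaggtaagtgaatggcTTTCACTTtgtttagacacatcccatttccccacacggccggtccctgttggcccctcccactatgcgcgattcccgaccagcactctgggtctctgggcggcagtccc
Eif2ak2 (chr17:78882523-78882822, minus strand): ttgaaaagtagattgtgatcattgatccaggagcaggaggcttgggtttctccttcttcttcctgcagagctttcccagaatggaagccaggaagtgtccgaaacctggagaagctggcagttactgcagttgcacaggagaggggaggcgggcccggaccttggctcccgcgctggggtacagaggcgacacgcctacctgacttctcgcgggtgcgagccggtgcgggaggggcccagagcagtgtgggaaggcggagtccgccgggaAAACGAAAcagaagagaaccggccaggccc
Mavs (chr2:131233813-131234112, plus strand): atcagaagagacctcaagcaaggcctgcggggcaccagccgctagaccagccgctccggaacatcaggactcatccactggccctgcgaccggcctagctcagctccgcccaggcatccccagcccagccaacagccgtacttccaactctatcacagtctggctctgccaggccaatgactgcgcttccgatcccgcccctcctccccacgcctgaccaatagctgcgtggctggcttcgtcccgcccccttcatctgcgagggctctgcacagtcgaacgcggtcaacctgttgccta

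The IRF core was found at 2 places in the Ddx58 window, from -59 to -52 on the strand of the gene and from 2 to 9 on the other strand, counting each window's start site as 0. That site is the gene's outermost start for Ddx58, Ifih1, Eif2ak2 and Mavs, while the Tlr3 window belongs to a start site 695 bases inside the gene, at 45410380. The Ifih1 window held 2 overlapping cores, from 28 to 35 and from 34 to 41, and the Tlr3 window 1, from -59 to -52 on the other strand. Eif2ak2 had 1 core, from 20 to 27, and Mavs had none. A longer ISRE-like repeat, GAAA followed by any 2 bases and GAAA again, which always contains the core, lay at 2 to 11 in Ddx58, at 32 to 41 in Ifih1 and at 18 to 27 in Eif2ak2. The GAS motif TTCNNNGAA, which reads the same on both strands, was matched only in Eif2ak2, from -178 to -170. Over 32851 such windows of mouse genes, 23.9% held the core, 3.44% the ISRE-like repeat and 8.3% the GAS motif on either strand. Eif2ak2 shared the ISRE-like repeat with Ddx58 and Ifih1, whose levels below differ from its own. A match describes letters in the window and does not show that a factor binds there.

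**Figure D1:**
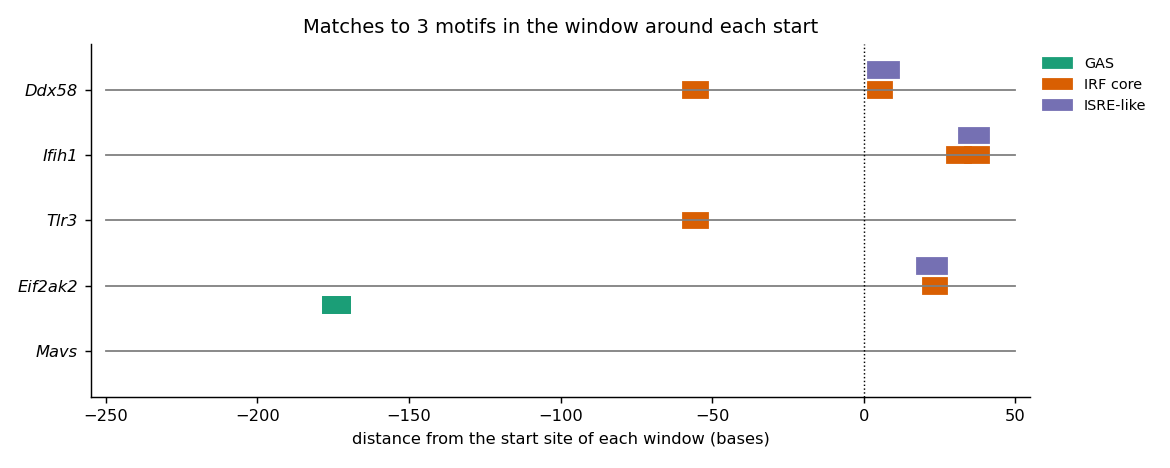
Positions of the motif matches in the RefSeq windows of 5 genes, with distance from each window's start site in bases on the horizontal axis and 1 line per gene; coloured boxes stand for the core AANNGAAA (IRF core), the spaced GAAA repeat (ISRE-like) and TTCNNNGAA (GAS), and the 2 overlapping cores of Ifih1 appear as 1 box. Cores or ISRE-like repeats lie between -59 and 41 in 4 genes, and the Mavs line is empty.

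The genes lie at chromosome 4, 40203777 to 40239825 (Ddx58), chromosome 2, 62595618 to 62646255 (Ifih1), chromosome 11, 100694884 to 100704271 (Dhx58), chromosome 8, 45395665 to 45411075 (Tlr3), and chromosome 17, 78850504 to 78882572 (Eif2ak2), all on the minus strand of GRCm38.p6. Mavs lies on the plus strand of chromosome 2, 131234063 to 131248025. Dhx58 is overlapped on the other strand by Dhx58os, Tlr3 by Gm45542 and Eif2ak2 by Gm26637 and n-R5s29 in GENCODE. Whether the libraries keep strand is not given in the sources used here, so reads of these genes and of their antisense partners cannot be told apart.

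Values are TPM, a level per transcript length that adds to a fixed total in each library and keeps no read counts, so depth is unknown. Replicates correlated across genes at Pearson r from 0.987 to 0.994 (genes are not independent replicates), 10911 to 11101 genes reached 1 TPM in a replicated library, and 0 pairs of libraries held identical values. Irf1 had 28.14 and 36.01 TPM in DKO cells and 30.64 and 23.57 TPM in IRF1KO cells, against 19.70 and 22.52 TPM in WT cells, all in media. Irf2 had 20.12 and 20.96 TPM in DKO cells and 18.19 and 17.35 TPM in IRF2KO cells, against 23.43 and 25.16 TPM in WT cells, and neither gene differed from WT by the test in any mutant in media. With IFNγ Irf2 was called lower in DKO cells than in WT cells (-0.69 ± 0.14, adjusted p = 0.017), and no other difference of Irf1 or Irf2 from WT was called under either interferon. A line can lose a protein and keep its transcript, so these levels check no line, and the genotypes rest on the labels. Of 14 dendritic cell markers 9 averaged at least 1 TPM, with Cd74, H2-Ab1, Itgax, Irf8, Batf3 and Spi1 well above it, Flt3 at 0 in every library and Clec9a and Xcr1 at no more than 0.26 TPM. Of 10 macrophage and monocyte markers 7 averaged at least 1 TPM, Csf1r, Cd14, Cd68 and Lyz2 among them, with Adgre1 at 0. Their sum ranged from 2492 to 3157 TPM over the 12 DKO and IRF2KO libraries and from 2892 to 3488 TPM over the 12 IRF1KO and WT libraries. Its part in the results was not tested. Lymphocyte markers summed to at most 0.61 TPM and fibroblast markers to at most 0.36 TPM. In bulk RNA, fewer cells with a transcript and less of it per cell cannot be told apart.

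Differences below are differences of log2(TPM + 1) between group means ± SE, from limma over all 11842 genes, two-sided, with Benjamini-Hochberg adjusted p-values; differences with an adjusted p below 0.05 were called. The pseudocount of 1 TPM understates changes of genes near 0. Each group has 2 libraries, and the spread is estimated over all 12 groups. Comparisons with the same WT or media group share its libraries.

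In media, 4 of the 6 genes were lower in IRF2-targeted cells: Ifih1, Ddx58, Dhx58 and Tlr3 fell in both DKO and IRF2KO cells relative to WT. The background was low, since 0.532% of all genes were called lower in DKO cells and 0.557% in IRF2KO cells. Eif2ak2 and Mavs were not called. In IRF1KO cells no gene of the 11842 was called in media (0% by limma, 305 at an unadjusted p under 0.05, 1 of the 6 genes among them, Tlr3).

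Ifih1 encodes MDA5, the sensor of long double-stranded RNA. In media it had 0.05 and 0.00 TPM in DKO cells, 0.09 and 0.08 TPM in IRF2KO cells, 3.23 and 3.44 TPM in IRF1KO cells, and 3.66 and 3.32 TPM in WT cells. With IFNα it reached 0.96 and 0.78 TPM in DKO cells, 1.46 and 0.91 TPM in IRF2KO cells, 5.90 and 7.07 TPM in IRF1KO cells, and 8.83 and 10.13 TPM in WT cells. With IFNγ it stood at 0.08 and 0.05 TPM in DKO cells, 0.08 and 0.17 TPM in IRF2KO cells, 3.39 and 3.50 TPM in IRF1KO cells, and 4.99 and 4.97 TPM in WT cells. The 12 libraries of DKO and IRF2KO cells lay at 0.00 to 1.46 TPM and the 12 of IRF1KO and WT cells at 3.23 to 10.13 TPM, so that no library of DKO or IRF2KO cells, even with IFNα, reached the lowest library of IRF1KO or WT cells in media. It is the only one of the 6 genes whose libraries separate in this way across all treatments, and the share of all genes that do so was not counted. The differences from WT were -2.13 ± 0.15 in DKO cells and -2.05 ± 0.15 in IRF2KO cells in media (adjusted p = 3.9e-07 and 6.9e-07), -2.49 ± 0.15 and -2.27 ± 0.15 with IFNα (8.2e-08 and 1.8e-07), and -2.49 ± 0.15 and -2.41 ± 0.15 with IFNγ (5.3e-08 and 2.6e-07). In IRF1KO cells Ifih1 differed from WT by -0.05 ± 0.15 in media, -0.49 ± 0.15 with IFNα and -0.43 ± 0.15 with IFNγ, none of them called (adjusted p = 1 for each).

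Ddx58 encodes RIG-I. In media it had 0.18 and 0.04 TPM in DKO cells, 0.18 and 0.36 TPM in IRF2KO cells, 1.66 and 2.12 TPM in IRF1KO cells, and 1.86 and 2.98 TPM in WT cells. With IFNα the levels were 9.0 and 11.24 TPM in DKO cells, 13.26 and 10.77 TPM in IRF2KO cells, 15.83 and 16.90 TPM in IRF1KO cells, and 19.56 and 20.70 TPM in WT cells. With IFNγ they were 0.39 and 0.89 TPM in DKO cells, 1.77 and 1.35 TPM in IRF2KO cells, 3.12 and 3.26 TPM in IRF1KO cells, and 5.77 and 4.97 TPM in WT cells. Within each treatment the 4 libraries of DKO and IRF2KO cells lay below the 4 of IRF1KO and WT cells, as also for Ifih1, Dhx58 and Tlr3. The share of all genes that separate so was not counted. For Ddx58 the distance in TPM between the sets was widest with IFNα, where the first reached at most 13.26 TPM and the second at least 15.83 TPM. As a share of the WT mean the levels in DKO cells were 4.55% in media, 50.3% with IFNα and 11.9% with IFNγ, and those in IRF2KO cells 11.2%, 59.7% and 29.1%. The differences from WT in media were -1.61 ± 0.19 in DKO cells and -1.41 ± 0.19 in IRF2KO cells (adjusted p = 0.00018 and 0.00095), and with IFNγ -1.97 ± 0.19 and -1.32 ± 0.19 (1.4e-05 and 0.0019). With IFNα the difference in DKO cells was -0.93 ± 0.19 (adjusted p = 0.026; 0.052 to 0.39 without either library of DKO or WT cells with IFNα, 1 left out at a time, none called), and in IRF2KO cells -0.71 ± 0.19, which was not called (adjusted p = 0.15). At a pseudocount of 5 TPM the IRF2KO difference with IFNα was called at -0.57 ± 0.10 (adjusted p = 0.0059), and at 0.1 TPM the DKO difference was not (-0.99 ± 0.37, adjusted p = 0.39). In IRF1KO cells Ddx58 differed by -0.23 ± 0.19 in media, -0.28 ± 0.19 with IFNα and -0.60 ± 0.19 with IFNγ, none called.

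Dhx58 encodes LGP2. In media it had 1.12 and 1.35 TPM in DKO cells, 0.79 and 1.07 TPM in IRF2KO cells, 1.85 and 2.39 TPM in IRF1KO cells, and 2.85 and 3.40 TPM in WT cells. With IFNα it had 5.81 and 5.89 TPM in DKO cells, 7.33 and 4.64 TPM in IRF2KO cells, 12.36 and 11.73 TPM in IRF1KO cells, and 14.96 and 12.32 TPM in WT cells. With IFNγ it had 1.13 and 1.57 TPM in DKO cells, 1.0 and 0.85 TPM in IRF2KO cells, 2.31 and 2.91 TPM in IRF1KO cells, and 3.31 and 2.58 TPM in WT cells. The means of DKO cells were 39.5% of WT in media, 42.9% with IFNα and 45.8% with IFNγ, and those of IRF2KO cells 29.8%, 43.9% and 31.4%. LGP2 transcripts kept a larger share of the WT level than MDA5 transcripts at each treatment. The differences in IRF2KO cells were -1.10 ± 0.19 in media, -1.09 ± 0.19 with IFNα and -1.03 ± 0.19 with IFNγ (adjusted p = 0.008, 0.0076 and 0.015), and those in DKO cells -0.88 ± 0.19, -1.09 ± 0.19 and -0.75 ± 0.19 (0.043, 0.007 and 0.081; the last was called at 0.048 with the replicate block and at 0.044 with trimmed-mean scaling). The calls in media and that of IRF2KO cells with IFNγ were lost at a pseudocount of 5 TPM (adjusted p = 0.17, 0.061 and 0.083 for DKO in media, IRF2KO in media and IRF2KO with IFNγ). That of DKO cells in media was lost without any 1 of its 4 libraries (adjusted p = 0.17 to 0.39) and with no filter on low values (0.07). Those of IRF2KO cells were lost without WT media replicate 2 or IRF2KO media replicate 1 (up to 0.14), without IRF2KO IFNα replicate 2 or WT IFNα replicate 1 (up to 0.11), and without IRF2KO IFNγ replicate 1 or 2 or WT IFNγ replicate 1 (up to 0.19). That of DKO cells with IFNα was lost without DKO IFNα replicate 1 or 2 or WT IFNα replicate 1 (up to 0.11). In IRF1KO cells the differences were -0.41 ± 0.19, -0.16 ± 0.19 and -0.13 ± 0.19 in media, with IFNα and with IFNγ, none called.

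Tlr3 encodes the endosomal receptor. In media it had 0.29 and 0.31 TPM in DKO cells, 1.24 and 1.47 TPM in IRF2KO cells, 2.21 and 2.26 TPM in IRF1KO cells, and 3.39 and 3.57 TPM in WT cells. With IFNα it had 0.71 and 1.44 TPM in DKO cells, 2.87 and 2.00 TPM in IRF2KO cells, 5.47 and 6.18 TPM in IRF1KO cells, and 7.99 and 11.21 TPM in WT cells. With IFNγ it had 0.37 and 0.45 TPM in DKO cells, 1.08 and 1.05 TPM in IRF2KO cells, 3.03 and 3.95 TPM in IRF1KO cells, and 6.61 and 5.81 TPM in WT cells. The 4 genotypes stood in the same order under each treatment, DKO below IRF2KO below IRF1KO below WT, with no overlap between neighbouring groups. How many of all genes keep such an order was not counted. The steps from DKO to IRF2KO and from IRF1KO to WT were not called at the pseudocount of 1 TPM. The differences from WT in DKO cells were -1.78 ± 0.19 in media, -2.36 ± 0.19 with IFNα and -2.35 ± 0.19 with IFNγ (adjusted p = 5e-05, 1.6e-06 and 2e-06). In IRF2KO cells they were -0.93 ± 0.19, -1.62 ± 0.19 and -1.80 ± 0.19 (0.03, 0.00015 and 8e-05), and the call in media was lost without any 1 of its 4 libraries (adjusted p = 0.12 to 0.32) and at a pseudocount of 5 TPM (0.068). In IRF1KO cells the differences of -0.47 ± 0.19, -0.62 ± 0.19 and -0.69 ± 0.19 had unadjusted p-values of 0.028, 0.0056 and 0.0027, and none was called over all genes by limma (adjusted p = 1, 1 and 0.53).

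Eif2ak2, which encodes PKR, had 19.74 and 20.90 TPM in DKO cells, 17.57 and 21.65 TPM in IRF2KO cells, 21.60 and 21.26 TPM in IRF1KO cells, and 21.66 and 24.07 TPM in WT cells in media. With IFNα the levels were 50.67 and 66.77 TPM in DKO cells, 56.36 and 57.18 TPM in IRF2KO cells, 48.69 and 52.19 TPM in IRF1KO cells, and 46.44 and 50.95 TPM in WT cells. With IFNγ they were 24.66 and 33.71 TPM in DKO cells, 34.06 and 33.16 TPM in IRF2KO cells, 27.39 and 29.71 TPM in IRF1KO cells, and 34.78 and 35.27 TPM in WT cells. Libraries of IRF2-targeted cells overlapped the set of IRF1KO and WT libraries under every treatment, but in media and with IFNγ only those of IRF1KO cells. Their highest values there, 21.65 and 34.06 TPM, lay below the lowest WT values, 21.66 and 34.78 TPM. With IFNα Eif2ak2 overlapped between DKO and WT cells, while both IRF2KO libraries lay above both WT libraries. None of its 9 differences from WT was called, and none had an unadjusted p under 0.05; they ran from -0.29 ± 0.15 (IRF1KO cells with IFNγ) to 0.25 ± 0.15 (DKO cells with IFNα). In IRF2KO cells in media the difference of -0.22 ± 0.15 had an interval of 2 SE from -0.51 to 0.08, which leaves out the size seen for the 4 other sensor genes.

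Mavs, the shared adaptor of RIG-I and MDA5, lay between 35.43 and 50.58 TPM in the 24 libraries, and its group means between 36.2 and 45 TPM. None of its differences was called in any of the 33 comparisons, and none had an unadjusted p under 0.05. The lowest of those p-values was 0.14, both for IFNα against media in WT cells (-0.23 ± 0.15) and for IRF2KO against WT cells with IFNα (0.23 ± 0.15), which share the WT libraries with IFNα.

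**Figure D2:**
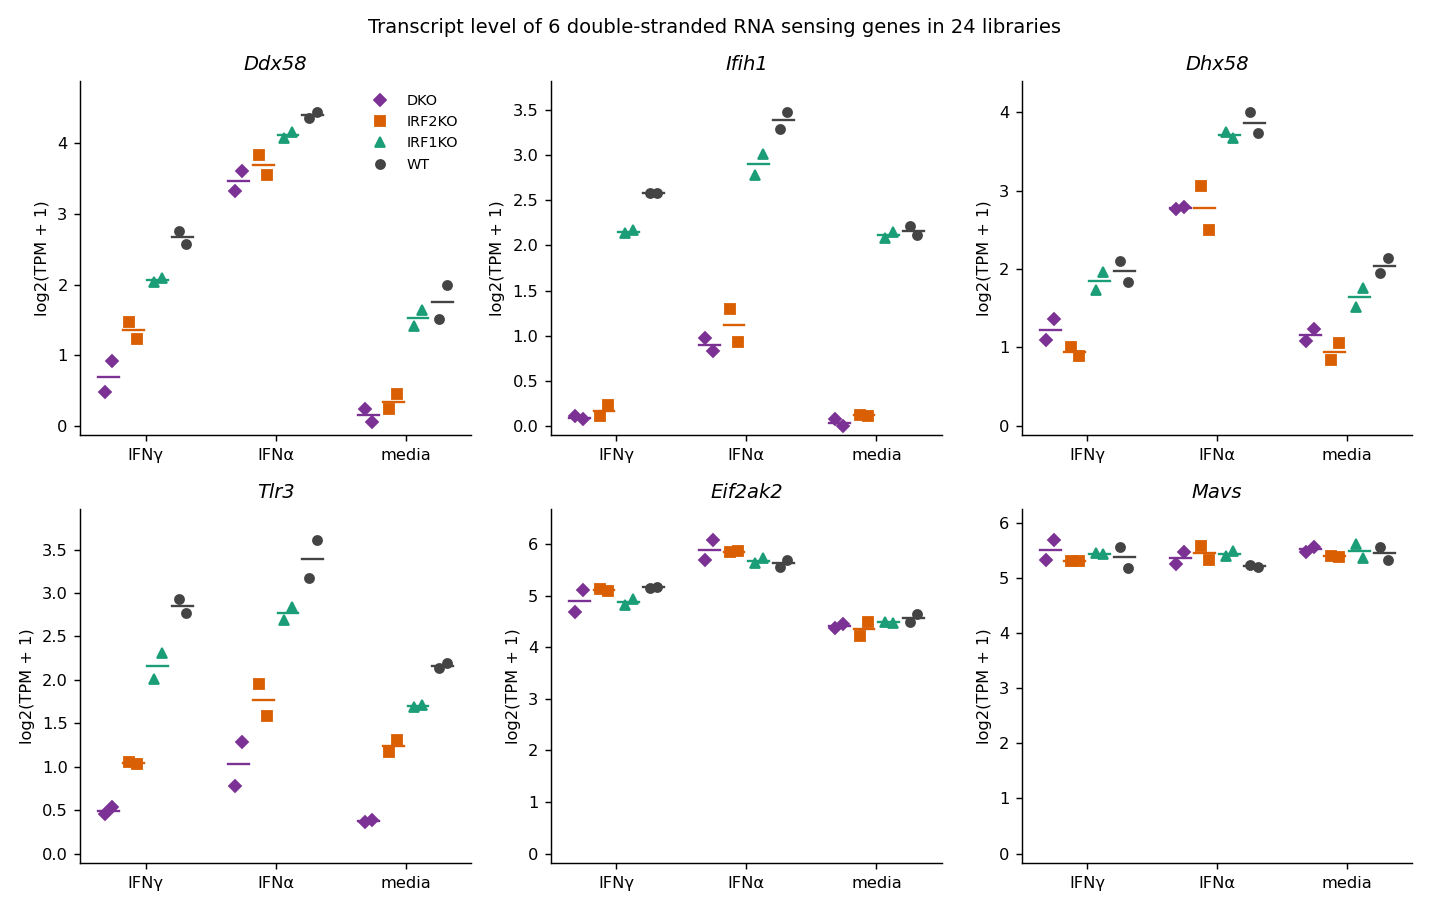
Transcript levels of the 6 genes as log2(TPM + 1) on the vertical axis, by treatment on the horizontal axis and by genotype in colour; each point is 1 library and each line the mean of 2. Ifih1 stays at or below 1.46 TPM in all DKO and IRF2KO libraries and at or above 3.23 TPM in all others, Tlr3 is lowest in DKO cells, then IRF2KO, IRF1KO and WT cells under each treatment, and Eif2ak2 and Mavs show no such split.

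With IFNα 4 of the 6 genes were called lower in DKO cells, against 0.684% of all genes, and 3 in IRF2KO cells, against 0.346%. With IFNγ 3 were called lower in DKO cells, against 1.02% of all genes, and 4 in IRF2KO cells, against 0.490%. In IRF1KO cells 0 of the 6 were called by limma under either interferon, where 0.177% of all genes were called in either direction with IFNα and 0.236% with IFNγ. At an unadjusted p under 0.05 these were 2 of the 6 genes (Ifih1 and Tlr3) with IFNα and 3 (Ddx58, Ifih1 and Tlr3) with IFNγ, all lower. Of all 11842 genes, 269 passed that threshold with IFNα and 287 with IFNγ, in either direction. When only the libraries of a comparison entered the fit, 3 of the 22 calls against WT held, those of Ifih1 in DKO cells in media and with IFNα and of Tlr3 in DKO cells in media.

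**Figure D3:**
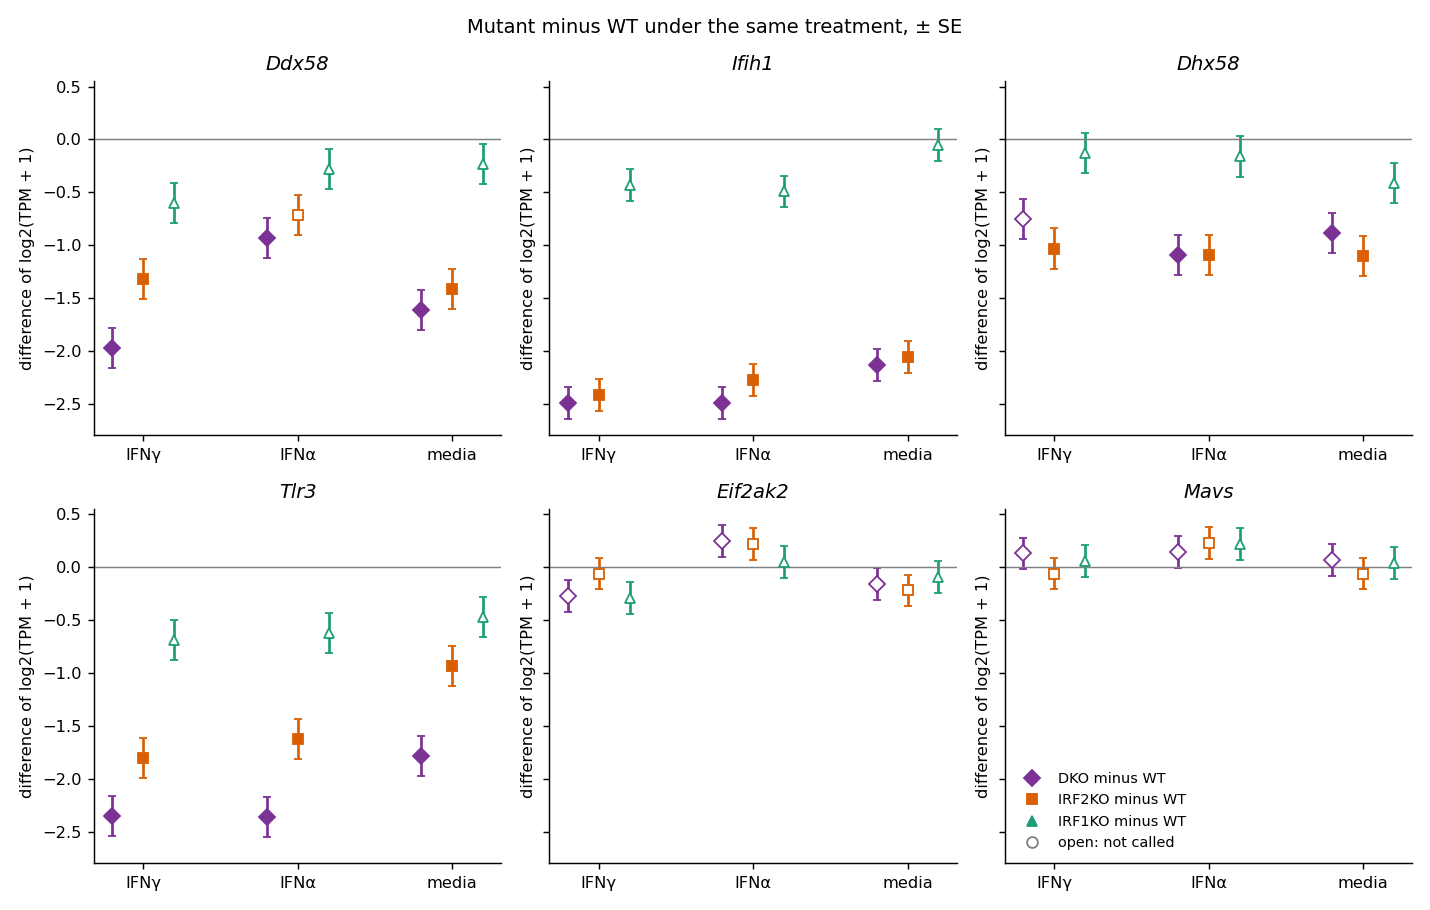
Mutant minus WT differences of log2(TPM + 1) with SE bars for the 6 genes, by treatment on the horizontal axis and by mutant genotype in colour; filled symbols are called and open ones are not. All filled symbols lie below 0 and belong to DKO or IRF2KO cells, between -2.49 and -0.88.

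The double knockout was set directly against each single knockout. Against IRF1KO cells, DKO cells had lower Ddx58, Ifih1 and Tlr3 in media (-1.38 ± 0.19, -2.08 ± 0.15 and -1.32 ± 0.19; adjusted p = 0.0012, 4.9e-07 and 0.0018), where 0.456% of all genes were called lower. With IFNγ the same 3 genes were lower (-1.37 ± 0.19, -2.06 ± 0.15 and -1.66 ± 0.19; adjusted p = 0.0012, 8.4e-07 and 0.00013), against 0.549% of all genes. With IFNα Ifih1 (-2.0 ± 0.15, adjusted p = 6e-07), Tlr3 (-1.74 ± 0.19, 5.6e-05) and Dhx58 (-0.93 ± 0.19, 0.027; 0.12 to 0.27 without any 1 of its 4 libraries) were called, against 0.473% of all genes. At a pseudocount of 5 TPM the Ddx58 call in media was lost (adjusted p = 0.072) and Ddx58 was called with IFNα (-0.50 ± 0.10, 0.017), and at 0.1 TPM that of Dhx58 was lost (0.1).

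Against IRF2KO cells, none of the 6 genes was called in DKO cells under any treatment by limma, where 0.118% of all genes were called in either direction in media, 0.380% with IFNα and 0.481% with IFNγ. Tlr3 was lower in both DKO libraries than in both IRF2KO libraries under each treatment, with differences of -0.86 ± 0.19 in media, -0.74 ± 0.19 with IFNα and -0.55 ± 0.19 with IFNγ, unadjusted p-values of 0.00045, 0.0016 and 0.012 and adjusted ones of 0.22, 0.26 and 0.91. At a pseudocount of 0.1 TPM the difference in media was called (-1.86 ± 0.29, adjusted p = 0.0088). Ddx58 with IFNγ was the other gene with an unadjusted p under 0.05 (-0.65 ± 0.19, adjusted p = 0.49). Of all 11842 genes, 995 passed that unadjusted threshold in media, 365 with IFNα and 433 with IFNγ. In media the median of all genes was 0.134 higher in DKO than in IRF2KO cells on the log2 scale, and 0.010 after trimmed-mean scaling, so the Tlr3 difference there lies further from the median than its value says.

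IFNα raised the transcripts of 5 of the 6 genes in IRF1KO and WT cells and of 4 in DKO and IRF2KO cells. The share of all genes called higher was 0.971% in DKO cells, 1.38% in IRF2KO cells, 0.811% in IRF1KO cells and 1.04% in WT cells. Ddx58 rose most of the 6, by 3.32 ± 0.19 in DKO cells, 3.35 ± 0.19 in IRF2KO cells, 2.59 ± 0.19 in IRF1KO cells and 2.65 ± 0.19 in WT cells (adjusted p at most 5.5e-07). In WT cells its mean with IFNα was 8.32 times that in media. Dhx58 rose by 1.62 ± 0.19, 1.83 ± 0.19, 2.07 ± 0.19 and 1.82 ± 0.19 in the same order of genotypes, and Eif2ak2 by 1.47 ± 0.15, 1.49 ± 0.15, 1.20 ± 0.15 and 1.06 ± 0.15. Ifih1 rose by 0.87 ± 0.15 in DKO cells (adjusted p = 0.0046), 1.0 ± 0.15 in IRF2KO cells (0.00087), 0.78 ± 0.15 in IRF1KO cells (0.014) and 1.22 ± 0.15 in WT cells (0.00011). Tlr3 rose by 1.08 ± 0.19 in IRF1KO cells (adjusted p = 0.0076) and 1.23 ± 0.19 in WT cells (0.0017), while its differences of 0.65 ± 0.19 in DKO cells and 0.53 ± 0.19 in IRF2KO cells were not called (0.27 and 0.54). At a pseudocount of 0.1 TPM the Tlr3 rise in DKO cells was called (1.48 ± 0.29, adjusted p = 0.013) and the Ifih1 rise in IRF1KO cells was not (0.93 ± 0.30, 0.4); at 5 TPM the Ifih1 rise in DKO cells was not (0.22 ± 0.07, 0.27). Some of these calls were lost when 1 library was left out, which leaves 1 library in its group. Such a loss does not show that the library decided the call. Ifih1 in DKO cells was lost without DKO IFNα replicate 1 or DKO media replicate 2, while its difference ran from 0.80 to 0.94 over the 4 such fits. In IRF1KO cells both Ifih1 and Tlr3 were lost without IRF1KO IFNα replicate 2 or either IRF1KO media library (up to 0.25 and 0.12), and Tlr3 in WT cells was lost without WT IFNα replicate 2 (0.051).

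IFNγ gave a smaller set. Ddx58 rose by 1.01 ± 0.19 in IRF2KO cells (adjusted p = 0.013) and 0.91 ± 0.19 in WT cells (0.025), and Eif2ak2 rose by 0.75 ± 0.15 in IRF2KO cells (0.014). That is 2 of 6 genes in IRF2KO cells, against 1.04% of all genes called higher, and 1 of 6 in WT cells, against 1.20%. None of the 6 was called by limma in DKO or IRF1KO cells, where 0.777% and 1.16% of all genes were called in either direction. There 2 and 3 of the 6 had an unadjusted p under 0.05. Of the 11842 genes tested, 745 in DKO and 642 in IRF1KO cells passed that unadjusted threshold. With the replicate number as a block, Eif2ak2 was also called in DKO cells (0.49 ± 0.11, adjusted p = 0.046, against 0.27 without the block) and in WT cells (0.60 ± 0.11, 0.0088 against 0.069); the call in WT cells was also made with trimmed-mean scaling (0.023) and quantile scaling (0.04). Tlr3 differed by 0.68 ± 0.19 in WT cells and was not called (adjusted p = 0.16), although both IFNγ libraries lay above both media libraries. Ifih1 differed by 0.41 ± 0.15 in WT cells (0.53) and by at most 0.06 in each mutant, and Dhx58 by -0.07 to 0.21 in the 4 genotypes, none called. In DKO cells Ddx58 differed by 0.55 ± 0.19 (adjusted p = 0.46), and at a pseudocount of 0.1 TPM its rise was called (1.81 ± 0.37, 0.024). The Ddx58 calls were lost at a pseudocount of 5 TPM in IRF2KO cells (adjusted p = 0.25) and of 0.1 TPM in WT cells (0.32). Leaving out 1 library ended that in IRF2KO cells without IRF2KO IFNγ replicate 1 or IRF2KO media replicate 1 (up to 0.21). It ended that in WT cells without either WT IFNγ library or WT media replicate 1 (up to 0.45), and that of Eif2ak2 without either IRF2KO IFNγ library or IRF2KO media replicate 1 (up to 0.26).

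**Figure D4:**
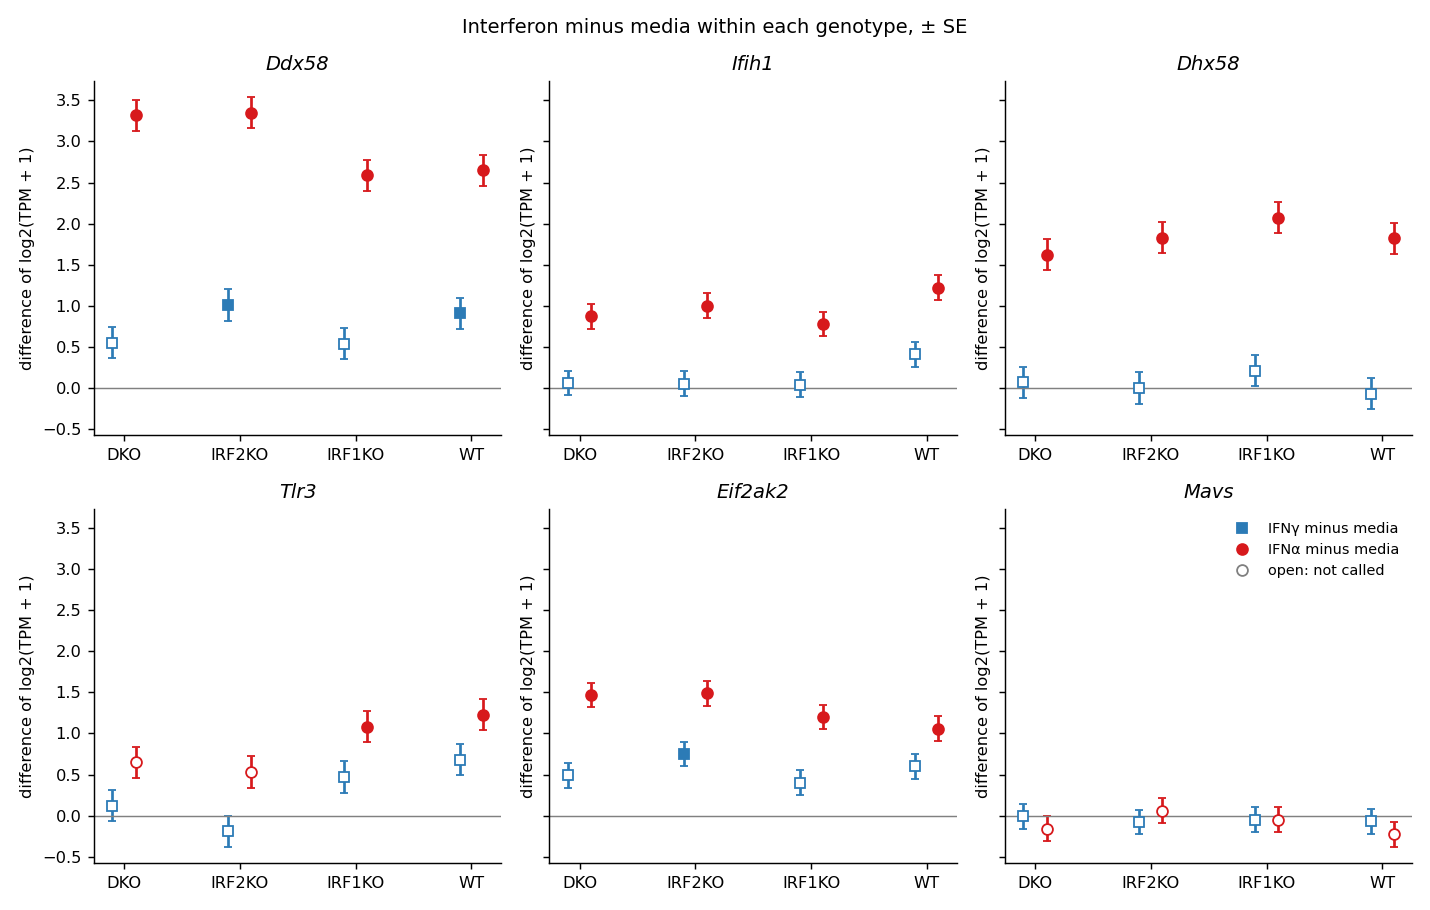
Interferon minus media differences of log2(TPM + 1) with SE bars for the 6 genes, by genotype on the horizontal axis and by interferon in colour; filled symbols are called and open ones are not. The IFNα difference is above the IFNγ difference for Ddx58, Ifih1, Dhx58, Tlr3 and Eif2ak2 in each genotype, and all Mavs symbols are open and near 0.

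A direct contrast of the interferons gave the same order for the helicase genes. The difference of IFNγ minus IFNα for Ddx58 was -2.77 ± 0.19 in DKO cells, -2.34 ± 0.19 in IRF2KO cells, -2.05 ± 0.19 in IRF1KO cells and -1.73 ± 0.19 in WT cells, and for Dhx58 -1.55 ± 0.19, -1.83 ± 0.19, -1.86 ± 0.19 and -1.89 ± 0.19, all called. For Ifih1 it was -0.81 ± 0.15, -0.95 ± 0.15, -0.75 ± 0.15 and -0.81 ± 0.15, all called, and Eif2ak2 was called lower in DKO (-0.99 ± 0.15), IRF2KO (-0.74 ± 0.15) and IRF1KO cells (-0.80 ± 0.15) but not in WT cells (-0.46 ± 0.15, adjusted p = 0.38). Tlr3 and Mavs were not called. The share of all genes called lower with IFNγ was 0.625% in DKO cells, 0.583% in IRF2KO cells, 0.414% in IRF1KO cells and 0.355% in WT cells. Leaving out 1 library ended the Ifih1 call in each genotype. This held without any 1 of 3 libraries in DKO cells (DKO IFNα replicate 1 and both DKO IFNγ libraries, adjusted p up to 0.16), without IRF2KO IFNα replicate 1 (0.078), without any 1 of the 4 IRF1KO libraries (0.065 to 0.27) and without WT IFNα replicate 2 or either WT IFNγ library (up to 0.18). It ended those of Eif2ak2 without any 1 of the 4 libraries in IRF2KO (0.14 to 0.18) and IRF1KO cells (0.06 to 0.14). The Ifih1 calls were also lost at a pseudocount of 5 TPM in DKO and IRF2KO cells (adjusted p = 0.33 and 0.099) and of 0.1 TPM in IRF1KO and WT cells (0.47 and 0.49), and under quantile scaling in DKO cells (0.055).

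Whether a mutant responded differently from WT was tested on the difference of the responses. None of the 36 values for the 6 genes was called by limma, and 4 had an unadjusted p under 0.05. Of all 11842 genes, 166 in DKO, 394 in IRF2KO and 203 in IRF1KO cells passed that unadjusted threshold for IFNα. For IFNγ 248, 175 and 175 passed it in the same order. The share of all genes called in either direction was 0.0844% for IFNα in DKO cells, 0.0676% in IRF2KO cells and 0.0253% in IRF1KO cells, and for IFNγ 0.0929%, 0.0338% and 0.0844% in the same order. The 4 values were those of Ddx58 with IFNα in DKO (0.67 ± 0.28) and IRF2KO cells (0.71 ± 0.28) and of Tlr3 in IRF2KO cells with IFNα (-0.69 ± 0.27) and with IFNγ (-0.87 ± 0.27). On this scale the values for the genes near 0 in media turn on the pseudocount. The IFNα response of Ifih1 in DKO cells minus that in WT cells was 1.56 ± 0.43 at 0.1 TPM (adjusted p = 1), -0.35 ± 0.21 at 1 TPM (1) and -0.54 ± 0.09 at 5 TPM, where it was called (0.022). For Ddx58 the same difference was 2.64 ± 0.52 at 0.1 TPM, 0.67 ± 0.28 at 1 TPM and -0.20 ± 0.14 at 5 TPM, none called (adjusted p = 0.25, 1 and 1). In TPM, Ifih1 had 0.05 and 0.00 in DKO cells in media, and its DKO libraries with IFNα, at 0.96 and 0.78, still lay below the WT libraries in media, at 3.66 and 3.32. The median of all genes for IFNα in IRF2KO minus WT cells was 0.142, and 0.022 after trimmed-mean scaling.

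The other genes of the sensing pathways were counted in WT cells under each interferon and in the mutants in media. Among 20 tested genes for other double-stranded RNA-binding and RNA-decay proteins, 8 rose with IFNα in WT cells and 3 with IFNγ, with a median difference of 0.15 and 0.12 against -0.056 and -0.010 over all genes. Of all genes 1.04% were called higher with IFNα in WT cells and 1.20% with IFNγ, and in lists of this size a count of 0 or 1 is near that share. With IFNα the 8 included Oasl2 (3.42 ± 0.16, with 14.90 and 11.99 TPM against 0.39 and 0.30 TPM in media), Oas2 (3.39 ± 0.35) and Oasl1 (3.19 ± 0.16). Oasl2, Oas2 and Oasl1 are members of the oligoadenylate synthetase family. With IFNγ the 3 were Oas2 (1.88 ± 0.35), Oasl2 (1.20 ± 0.16) and Oasl1 (0.76 ± 0.16). Among 20 genes of signalling below MAVS, 1 rose with IFNα, Irf7, the factor that amplifies type I interferon (35.89 and 34.32 TPM, against 0.57 and 0.96 TPM in media; 4.36 ± 0.21), and 1 with IFNγ, Tbkbp1, which encodes an adaptor of the kinase TBK1 (0.85 ± 0.15). Of 13 regulators of RIG-I-like receptors 0 were called with IFNα and 1 with IFNγ, Nlrc5, better known as the activator of MHC class I genes (1.51 ± 0.27). Of 5 measured output genes Cxcl10, a chemokine for T cells, rose with IFNα (4.12 ± 0.58) and with IFNγ (5.02 ± 0.58, with 192.82 and 59.45 TPM in the 2 libraries). None of 10 genes of the endosomal TLR arm and none of 12 of the PKR and eIF2α arm was called in WT cells under either interferon. In media none of the genes of these 6 lists was called in DKO or in IRF2KO cells against WT, where 0.532% and 0.557% of all genes were called lower, so that counts of 0 in these lists are near the background.

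The pattern of each gene over the 12 group means was set beside the 1278 tested genes whose group means spanned at least 1 log2. This is only a description, since the groups share genotypes, treatments and replicate numbers. Ifih1 and Tlr3 were most alike among the 6 (r = 0.95, n = 12 groups), as were Ddx58 and Dhx58 (0.95), while Eif2ak2 followed Ddx58 (0.89) more than Ifih1 (0.34) or Tlr3 (0.38). Outside the 6 genes, the 3 most like Ddx58 were Samd9l (0.985), AK035387 (0.976) and Trim34a (0.968). For Ifih1 they were Ifi27 (0.961), AK041461 (0.959) and Oas1c (0.954), and for Dhx58 Oas1a (0.966), Slfn9 (0.959) and mKIAA1554 (0.951). Nmi (0.945) and Mov10 (0.935) were nearest to Tlr3. Eif2ak2 was nearest to Mnda (0.989), Gm6548 (0.984) and Slfn8 (0.981). The group means of Mavs spanned 0.30 log2, and its nearest genes were Fmnl3 (0.841), AK139813 (0.825) and Mir692-2b (0.771). Oas1a, Oas1c, Slfn8 and Slfn9 have close paralogs between which the authors' estimates could have been split.

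The 6 libraries without a replicate were quantified against another transcript set, so their levels are compared only with each other and carry no test. Ifih1 had 1.97 TPM in IRF2KO cells and 8.65 TPM in WT cells with IFNα, 0.61 and 4.53 TPM with LPS, and 0.07 and 2.56 TPM at 0 h. Tlr3 had 3.52 TPM in IRF2KO cells and 12.63 TPM in WT cells with IFNα, 0.35 and 1.86 TPM with LPS, and 0.25 and 2.75 TPM at 0 h. These were the 2 of the 6 genes that were lower in IRF2KO cells by at least 1 on the log2(TPM + 1) scale, and they were so at each of the 3 conditions, where 0.471% of 10410 genes passed that size with IFNα, 0.500% with LPS and 0.557% at 0 h. Ddx58 had 12.66 TPM in IRF2KO cells and 13.31 TPM in WT cells with IFNα, 0.68 and 0.91 TPM with LPS, and 0.43 and 1.02 TPM at 0 h. Dhx58 had 8.76 TPM in IRF2KO cells and 14.53 TPM in WT cells with IFNα, 1.11 and 1.43 TPM with LPS, and 0.89 and 1.62 TPM at 0 h. Both helicase genes were lower in the IRF2KO library in each condition, with log2 differences between -0.67 and -0.07.

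Eif2ak2 had 83.39 TPM in the single IRF2KO library and 63.14 TPM in the WT library with IFNα, 19.44 and 19.18 TPM with LPS, and 23.16 and 22.11 TPM at 0 h. Mavs ranged from 22.24 to 41.02 TPM in these 6 libraries. None of these libraries was kept for 2 h in media, so treatment and time cannot be told apart in differences from 0 h. With IFNα against 0 h, 5 of the 6 genes, all but Mavs, were higher by at least 1 log2 in both genotypes, where 1.81% of genes passed in IRF2KO cells and 1.60% in WT cells. With LPS, which signals through TLR4, 0 of the 6 genes did so in either genotype, against 2.40% of genes in IRF2KO cells and 2.19% in WT cells. The differences with LPS ran up to 0.59 in IRF2KO cells and 0.64 in WT cells, both for Ifih1, and down to -0.85 for Mavs in IRF2KO cells and -0.39 for Tlr3 in WT cells.

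**Figure D5:**
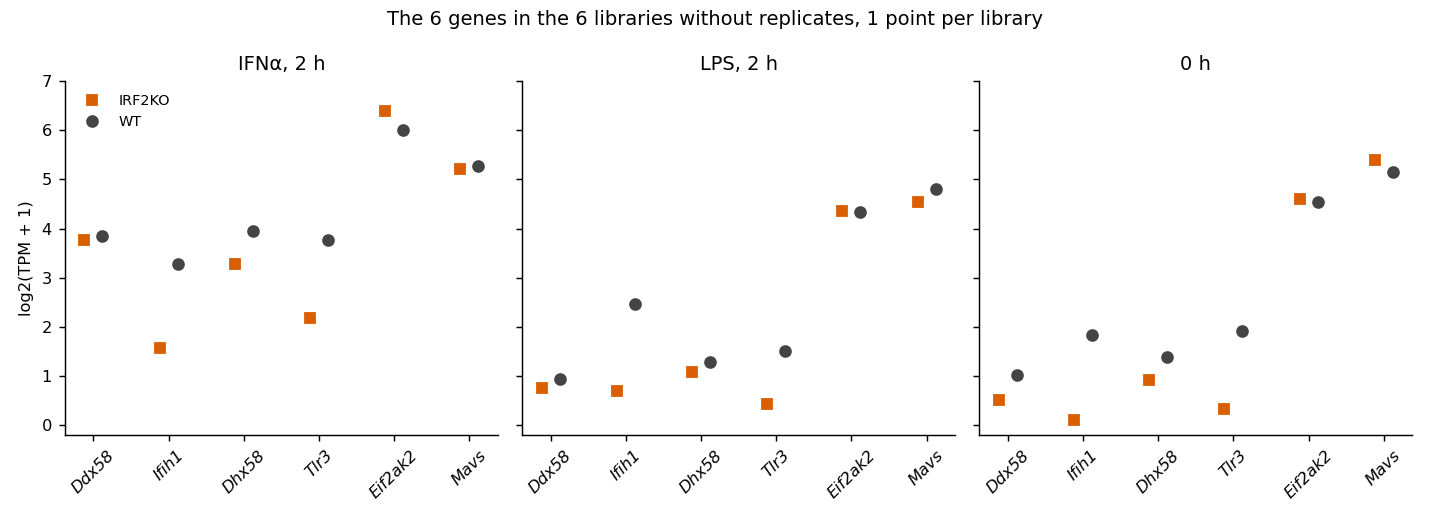
Levels of the 6 genes as log2(TPM + 1) on the vertical axis in the 6 libraries without replicates, 1 point per library, with IRF2KO cells left of WT cells for each gene and 1 panel per condition. Ifih1 and Tlr3 show the widest gaps between genotypes in each panel, and for Eif2ak2 and Mavs the points of the genotypes lie within 0.40 of each other.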

How the data were processed

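The authors deposited 1 table of TPM values (a length-scaled share of transcripts) for 30 libraries, used here as given; the submitters' processing notes name bcl2fastq 2.20, Bowtie 0.12.2 and RSEM, and the builds mm10 and GRCm38 without their roles. TPM holds no counts, so no count model was used and depth is unknown. Entries of a symbol were summed within the 24 replicated and, separately, the 6 single libraries, which used different transcript sets. Group means of log2(TPM + 1) in the 24 were compared with limma (version 3.58.1, R 4.3.3; 12 groups, 12 residual degrees of freedom, trended prior). The 11842 genes tested reached 1 TPM in 2 or more libraries. Benjamini-Hochberg adjustment was done separately in each of 33 comparisons. The fit was tested on simulated data, with changes put only into genes above about 5 TPM and noise drawn independently for each library. That test does not cover changes of genes near 0 TPM or deviations shared by replicate number. The genes described, the gene lists, the comparisons and the naming rule (the 6 genes, Irf1 and Irf2, the 3 nearest genes by correlation for each, and up to 3 called genes of each list with the smallest p in 4 comparisons) were chosen with earlier results of these data known. One of the nearest genes of Tlr3 is not reported here. Alternatives were quantile and trimmed-mean (TMM-type) scaling, pseudocounts of 0.1 and 5 TPM, a stricter filter (mean of 5 TPM) or none, the replicate number as a block, the compared groups alone, and leaving out 1 library at a time. Sample titles give each replicate number 1 date-like code, so the numbers were taken to pair the samples; of 66 pairs of groups, 56 had a correlation over 0.1 between same-numbered deviations (median 0.233, lowest -0.16, highest 0.481). Each code holds 1 library per group, so a difference between 2 groups has no spread of its own within a code; the block fit holds the code as a term, and no additive fit within a code was run. The single libraries have no test. Python 3.11.15 with numpy 2.4.6, pandas 2.3.3 and matplotlib 3.10.9 did the rest; sequences and positions are RefSeq's on GRCm38.p6, overlaps GENCODE's.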

Additional observations from a re-analysis of the deposited data

How the results depend on the processing

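Over the 6 genes, 21 of 48 interferon against media tests, 22 of 54 mutant against WT tests, 9 of 36 double against single knockout tests, 0 of 36 differences of responses and 15 of 24 IFNγ against IFNα tests were called. With a mean of at least 5 TPM these counts were 11, 5, 2 and 7 for the 4 families with calls, since 3 of the 6 genes (Ifih1, Dhx58 and Tlr3) do not pass that filter. With the compared groups alone they were 6, 3, 1 and 1, in fits with fewer samples; the 6 are Ddx58 with IFNα in all 4 genotypes, Dhx58 with IFNα in IRF1KO cells and Eif2ak2 with IFNα in IRF2KO cells. At a pseudocount of 5 TPM 1 difference of responses was called. Without 1 library the counts ranged from 19 to 21, 19 to 22, 8 to 9, 0 to 0 and 13 to 15. In family counts without 1 library, here and below, only comparisons that hold that library were refitted, and the others kept their calls. Such counts can therefore move little. The replicate block, that is the pairing by number, gained 3 calls, named in the report, and changed no other call of the 6 genes. The same families hold 8, 9, 6, 6 and 4 comparisons, each over 11842 genes, and 1017, 727, 392, 46 and 407 of those tests were called. Over all genes the block gave 1570, 1603, 852 and 688 calls for the families other than the differences of responses. The compared groups alone gave 327, 63, 33, 16 and 64. A mean of at least 5 TPM gave 454 for mutant against WT. The differences of responses numbered 17 at a pseudocount of 0.1 TPM and 70 at 5 TPM, and 28 to 48 without 1 library, the lowest without WT media replicate 2. Except where values show the cause, as above, the cause was not tested. Of 1485 values of single genes under alternatives that leave out no library, 0 changed sign with a call, 73 lost a call and 12 gained one, and 34 changed sign with no call in either; of 936 values without 1 library, 62 lost a call, 0 gained one and 68 changed sign with no call in either. Depth is unknown and limits most the genes near 0 TPM, Ifih1, Ddx58 and Tlr3 in IRF2-targeted cells, whose log2 differences depend on the pseudocount.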
